A study of Mus musculus with 15 samples.

Results

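A set of 10 genes for plasma membrane amino acid transporters was examined across mouse medulloblastoma models and sorted cerebellar cells: Slc7a1, Slc7a3, Slc7a5, Slc7a11, Slc3a2, Slc1a4, Slc1a5, Slc38a1, Slc38a2 and Slc43a1. The members were taken by gene name, with earlier results of these data known. Every probe set that the platform annotation lists with one of them alone was used. This gave 16 of the 45141 probe sets on the array, for 9 of the 10 genes and out of 17097 genes in all. No probe set was listed for Slc1a4 alone, so Slc1a4 was not analysed here.

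The 15 one-colour arrays form 5 groups of 3. Myc primary tumours came from cerebellar cells of Cdkn2c-/-, Trp53-/-, Atoh1-GFP mice that had been infected with Myc and implanted in the cerebral cortex of immunocompromised nude mice. Myc secondary tumours grew after sphere cells cultured from Myc primary tumours were transplanted orthotopically. Shh tumours arose spontaneously in Cdkn2c-/-; Trp53Fl/Fl; Nestin-Cre mice, in which Nestin-Cre drives loss of Trp53 in neural precursors. GFP-positive and GFP-negative cells were sorted by flow cytometry from cerebella of Cdkn2c-/-, Trp53-/-, Atoh1-GFP mice at postnatal day 6, where the reporter marks the granule neuron lineage. The sample labels of both sorted groups read spontaneous tumour, which conflicts with the study's design text, and the design text was followed. All 5 groups carry the Cdkn2c deletion, which removes a cell cycle inhibitor. Trp53 was deleted throughout the body of the mice that gave the Myc donor cells and the sorted cells, but conditionally in the Shh mice, and host cells in the Myc tumours come from nude mice. The Myc tumours grew in the cortex of nude mice, which lack T cells, and the Shh tumours in their own host. RNA was taken from dissociated tumour cells after a Percoll gradient, a step that separates cells by density. Whether the 3 samples of a group are separate animals, or whether animals were pooled, is not stated in the labels.

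Amino acid transporters bring nitrogen, carbon and sulphur into growing cells. Slc7a1 and Slc7a3 carry arginine and lysine. Slc7a5 and Slc7a11 are light chains that reach the cell surface only when bound to the glycoprotein Slc3a2, and they carry large neutral amino acids and cystine, respectively. Slc43a1 carries branched-chain amino acids without such a partner. Slc1a5, Slc38a1 and Slc38a2 carry glutamine and small neutral amino acids with sodium. Many of these genes are known targets of Myc or of Atf4, the transcription factor that acts when amino acids run short, and leucine taken up through Slc7a5 activates the kinase complex mTORC1.

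The deposited values were log2 signals, with array medians from 4.64 to 4.89. A background of 4.77 was taken from the nonspecific control probe sets (23, at their 95th percentile), and signals below it are called not above background. In the sorted cells, Atoh1 averaged 8.92 in GFP-positive and 4.09 in GFP-negative cells. Mycn, a target of Shh signalling, averaged 10.70 in Shh tumours and 4.54 in Myc primary tumours. Myc averaged 7.54 in Myc primary, 9.36 in Myc secondary, 8.49 in Shh, 7.15 in GFP-positive and 8.60 in GFP-negative samples, and whether its probe set reads the introduced Myc was not tested. Myc primary 3, Myc secondary 1 and GFP-negative 3 stood apart from their groups in whole-array profiles, and calls that change without them are given beside the gene. The numbers of the sample titles have gaps, and they were split into 2 runs at the gap before GFP-negative 3. The earlier run holds the Myc primary, Shh, GFP-negative 1 and GFP-negative 2 arrays. The later holds GFP-negative 3 and the GFP-positive and Myc secondary arrays. A further gap, within the earlier run, separates the Myc primary and Shh arrays from GFP-negative 1 and GFP-negative 2.

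In each of the 3 tumour groups, 5 of 9 transporter genes were higher than in GFP-positive cells: Slc7a1, Slc7a3, Slc7a5, Slc3a2 and Slc1a5. Of all genes, 14.5% were higher in Myc primary, 13.5% in Myc secondary and 4.63% in Shh tumours. With a term for the run of titles, which rests on the GFP-negative arrays alone, only Slc7a1 stayed called in Myc primary and Shh tumours. In all 3 tumour groups Slc7a1, Slc7a3 and Slc1a5 were also higher than in GFP-negative cells, whereas Slc7a5 and Slc3a2 were not called against them. All 9 tumour arrays lay above all 6 sorted-cell arrays for Slc7a1, Slc7a3 and Slc1a5, a pattern seen for 4.56% of all genes. Slc38a1 was the 1 member with all tumour arrays below all sorted-cell arrays, as were 1.28% of all genes. Between the tumour groups, with each gene read by its brightest probe set, only Slc3a2 was called. It was lower in Myc secondary than in Shh tumours, as were 12.3% of all genes, and lost the call in 7 of 16 alternative runs. Another probe set of Slc7a1 was called higher there by limma (0.69, adjusted p = 0.035). The uncalled differences were not shown to be small. For Slc7a3 in Myc secondary against Myc primary tumours, limma's interval ran from -0.22 to 1.75. For Slc1a5 in Myc primary against Shh tumours it ran from -1.61 to 0.52.

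**Figure D1:**
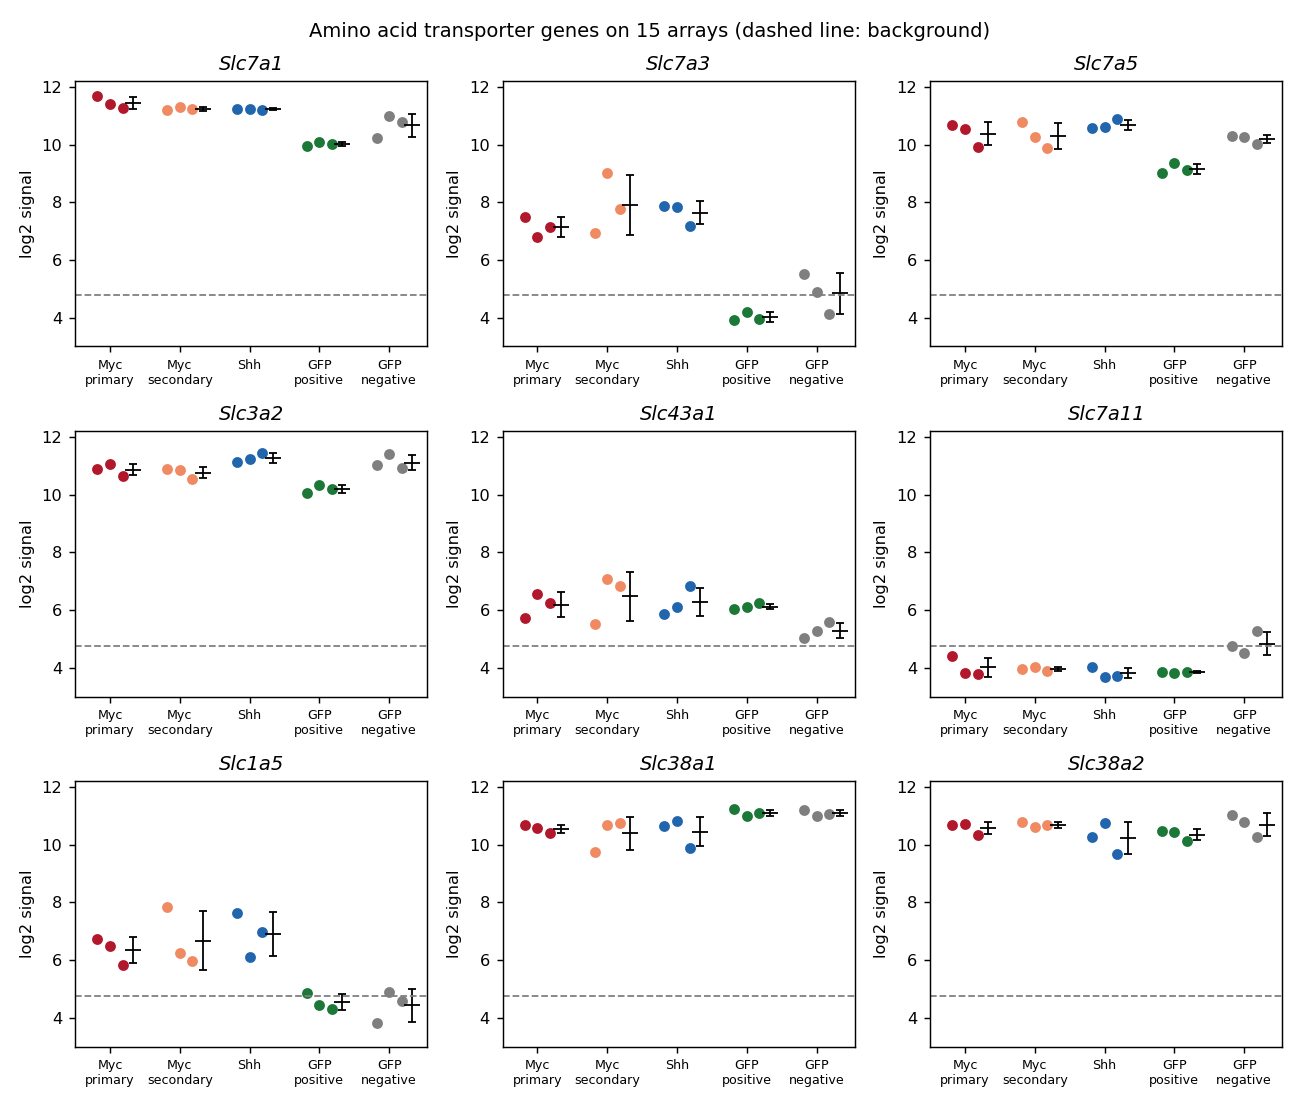
Log2 signal (vertical axis) of the 9 measured transporter genes on 15 arrays, in 5 groups (horizontal axis), with each gene read by its brightest probe set. Points are arrays, black bars are the group mean and SD of 3 arrays, and the dashed line is the background of 4.77. Slc7a3 lies at or near the background in both sorted groups and between 6.80 and 9.0 in the tumours, and Slc7a11 exceeds the background on 1 array.

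A member was called when its adjusted p was below 0.05 in limma's test with Benjamini-Hochberg adjustment over all 17097 genes. Adjusted p-values below are from this fit unless they belong to a further probe set or an alternative run. Those of further probe sets are from the same fit over all 28898 probe sets listed with 1 gene. Those of alternative runs are from the refit named beside them. Differences are in log2 units, and those of the fits over all arrays are given with their standard error. Of the 9 members, 5 were called higher in Myc primary tumours than in GFP-positive cells, beside 14.5% of all genes called higher and 10.3% lower, and none was lower. In Myc secondary tumours 5 of 9 were higher, beside 13.5% of all genes higher and 11.8% lower. In Shh tumours 5 of 9 were higher, beside 4.63% of all genes higher and 2.92% lower. The median difference of the members was 0.68, 0.57 and 1.08 in these comparisons, and that of all genes 0.06, 0.05 and -0.01. Slc7a1, Slc7a5, Slc3a2, Slc38a1 and Slc38a2 ranked between the 93.9 and 97.2 percentiles of all genes in mean signal. The shares over all genes include many dimmer genes and are not those of genes of like brightness. The 3 comparisons share the GFP-positive arrays, so they are not independent of each other. The Myc primary and Shh arrays are from the earlier run of titles and the GFP-positive arrays from the later one. With a term for the run, which rests on the GFP-negative arrays alone, 1 of 9 members, Slc7a1, stayed called in each of these 2 comparisons. Of the GFP-negative arrays, only GFP-negative 3, which stood apart from its group, is in the later run. With the term, Slc7a3, Slc7a5 and Slc3a2 differed less than without it, and none changed sign. Slc1a5 differed more and still lost its call. The term does not cover the gap in title numbers within the earlier run. The Myc secondary and GFP-positive arrays are both from the later run, and 5 of 9 members were called between them in the fit over all groups. That count is of another tumour group and cannot decide the part of the run in the Myc primary and Shh comparisons.

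**Figure D2:**
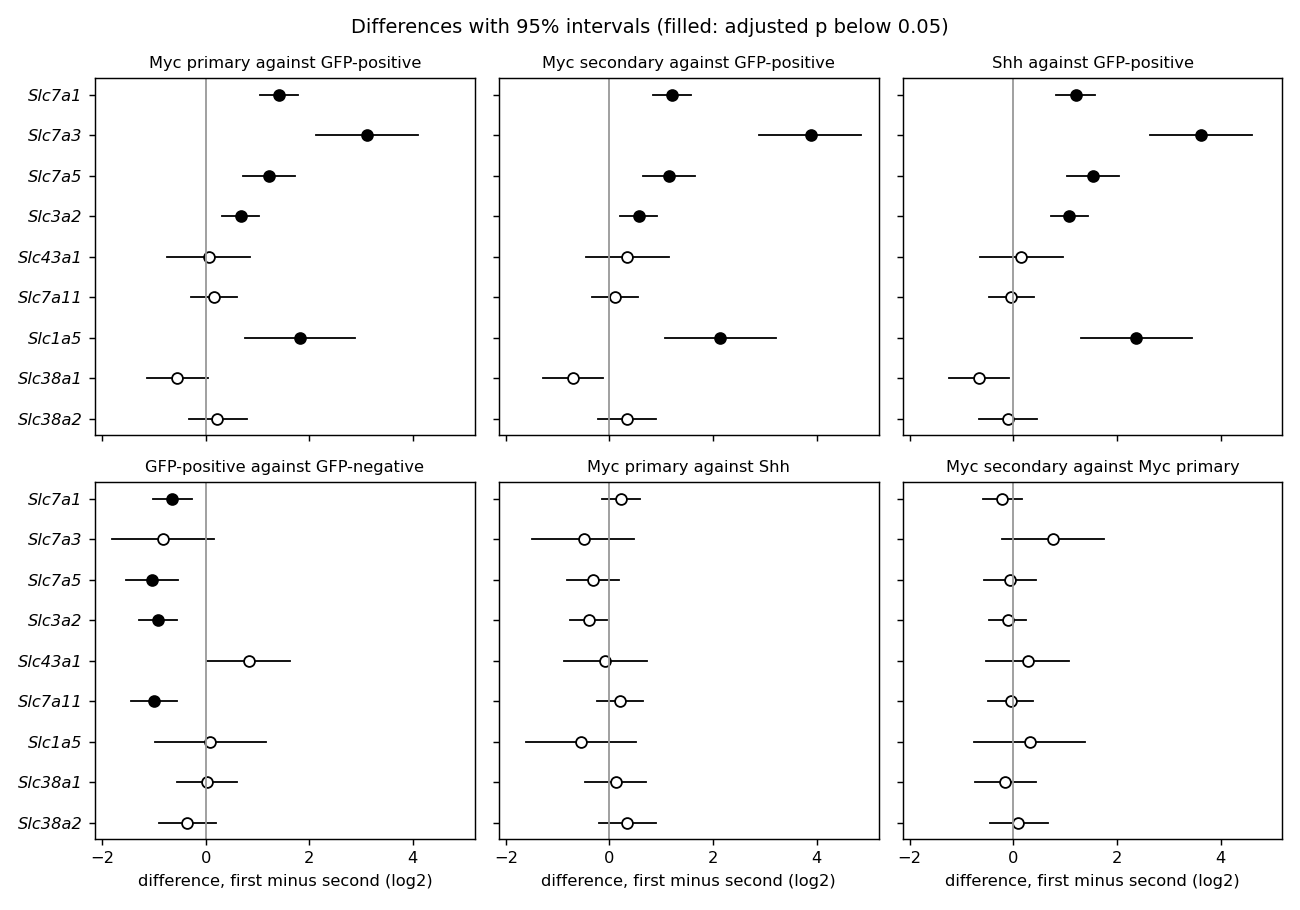
Difference in log2 signal, first group minus second (horizontal axis), for the 9 measured members (vertical axis) in 6 comparisons, with 95% intervals from limma. Filled points have an adjusted p below 0.05. The 3 panels against GFP-positive cells each have 5 filled points above 0, and the panels of Myc primary against Shh and of Myc secondary against Myc primary tumours have none.

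Slc7a1, the main arginine and lysine transporter of dividing cells, read 11.67, 11.39 and 11.26 in Myc primary tumours. It read 11.19, 11.30 and 11.22 in Myc secondary tumours, and 11.22, 11.24 and 11.19 in Shh tumours. The values were 10.22, 10.98 and 10.79 in GFP-negative cells and 9.96, 10.08 and 10.03 in GFP-positive cells. No tumour array overlapped with a sorted-cell array. The Myc primary arrays lay just above the Shh arrays, and the Myc secondary arrays overlapped with both. The difference from GFP-positive cells was 1.42 ± 0.17 in Myc primary (adjusted p = 6.9e-05), 1.21 ± 0.17 in Myc secondary (adjusted p = 0.00019) and 1.20 ± 0.17 in Shh tumours (adjusted p = 0.0012). Against GFP-negative cells it was 0.78 ± 0.17 in Myc primary tumours (adjusted p = 0.0033). In Myc secondary and Shh tumours it was 0.57 ± 0.17 (adjusted p = 0.018) and 0.56 ± 0.17 (adjusted p = 0.026). These last 2 calls were lost with 1 array less: the first without GFP-negative 1 (0.35) or Myc secondary 2 (0.54), the second without any 1 of the Shh arrays (0.54 to 0.57) or GFP-negative 1 (0.33). With cyclic loess, Slc7a1 was not called against GFP-negative cells in any tumour group (0.45, 0.21 and 0.27 in Myc primary, Myc secondary and Shh tumours).

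Slc7a1 was read by 2 more probe sets. 1454992_PM_at gave 1.16 ± 0.21 in Myc primary, 1.53 ± 0.21 in Myc secondary and 0.84 ± 0.21 in Shh tumours against GFP-positive cells, all called with every probe set tested. It differed from the first probe set in Myc secondary against Shh tumours, where it gave 0.69 ± 0.21 (adjusted p = 0.035) and the first 0.01 ± 0.17. 1421533_PM_at stayed below background in every group mean, and its differences were not read.

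The promoter window of Slc7a1 is shown with that of Slc3a2, because they are the 2 members higher in all 3 tumour groups than in GFP-positive cells for which RefSeq's table (GRCm38.p6) holds a window, together with those of Slc43a1 and Slc7a11, in which a searched motif was found. Each window runs from 250 bases before to 50 bases after the gene's start, 5′ to 3′ on the gene's strand, and capitals mark motif matches. The motifs searched, on both strands, were CACGTG, the E-box that Myc binds with Max, and TGATGNAA, an amino acid response element of the kind that Atf4 binds. They do not overlap with each other. CACGTG occurred in 7.15% and TGATGNAA in 3.97% of the 32851 promoter windows of the table.
Slc7a1, chr5:148399855-148400154, minus strand: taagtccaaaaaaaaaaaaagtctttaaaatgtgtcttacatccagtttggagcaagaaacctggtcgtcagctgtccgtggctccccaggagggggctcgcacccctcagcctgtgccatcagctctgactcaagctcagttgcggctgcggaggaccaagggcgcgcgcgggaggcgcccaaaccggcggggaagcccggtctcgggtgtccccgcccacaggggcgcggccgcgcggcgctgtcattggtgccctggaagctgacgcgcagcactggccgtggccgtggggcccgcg
Slc3a2, chr19:8713848-8714147, minus strand: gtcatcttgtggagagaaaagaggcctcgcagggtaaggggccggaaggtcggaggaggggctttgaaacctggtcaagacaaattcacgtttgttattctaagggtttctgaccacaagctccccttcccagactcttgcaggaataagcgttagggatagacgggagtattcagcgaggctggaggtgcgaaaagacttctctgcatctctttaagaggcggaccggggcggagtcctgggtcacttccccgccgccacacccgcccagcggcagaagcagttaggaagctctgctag
Slc43a1, chr2:84840073-84840372, plus strand: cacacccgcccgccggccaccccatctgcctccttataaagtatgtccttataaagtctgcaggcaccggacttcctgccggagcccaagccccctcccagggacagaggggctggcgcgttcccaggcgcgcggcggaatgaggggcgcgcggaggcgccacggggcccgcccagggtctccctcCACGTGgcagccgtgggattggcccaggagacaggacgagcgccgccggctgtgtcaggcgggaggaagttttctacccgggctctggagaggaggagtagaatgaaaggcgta
Slc7a11, chr3:50443564-50443863, minus strand: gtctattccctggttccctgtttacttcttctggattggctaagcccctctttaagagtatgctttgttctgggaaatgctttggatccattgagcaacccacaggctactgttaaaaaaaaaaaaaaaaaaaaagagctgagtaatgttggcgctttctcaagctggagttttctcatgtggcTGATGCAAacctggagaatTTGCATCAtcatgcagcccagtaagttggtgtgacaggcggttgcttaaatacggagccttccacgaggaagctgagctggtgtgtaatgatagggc
The Slc7a1 and Slc3a2 windows held neither motif. The Slc43a1 window held CACGTG 64 bases before the start. The Slc7a11 window held TGATGCAA 66 bases before the start and TTGCATCA, the same element on the opposite strand, 47 bases before it. At any spacing and orientation, 2 or more matches to TGATGNAA occurred in 23 windows (0.07%). The Slc7a1 table entry has a further window with no match, as has the Slc38a2 window. The Slc1a4 window has 1 match to TGATGNAA. A match describes letters in the window and does not show that a factor binds there. Windows for Slc7a3, Slc7a5, Slc1a5 and Slc38a1 were not analysed here.

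Slc7a3 carries the same cationic amino acids as Slc7a1 and had the widest range of the members. It read 7.47, 6.80 and 7.14 in Myc primary, 6.93, 9.0 and 7.77 in Myc secondary and 7.88, 7.84 and 7.19 in Shh tumours. In GFP-negative cells it read 5.51, 4.90 and 4.11, and in GFP-positive cells 3.91, 4.21 and 3.95. All 3 GFP-positive arrays and 1 GFP-negative array were not above background, so a fold against GFP-positive cells is a lower bound, taken against the background of 4.77. Slc7a3 was at least 5.15-fold higher in Myc primary (adjusted p = 3e-04), at least 8.76-fold in Myc secondary (adjusted p = 4.7e-05) and at least 7.31-fold in Shh tumours (adjusted p = 0.00046) than in GFP-positive cells. Against GFP-negative cells it was higher by 2.30 ± 0.45 (adjusted p = 0.0017), 3.06 ± 0.45 (adjusted p = 0.00017) and 2.80 ± 0.45 (adjusted p = 0.00058) in Myc primary, Myc secondary and Shh tumours. These 3 calls against GFP-negative cells were kept under every alternative run. GFP-positive and GFP-negative cells were not called different (adjusted p = 0.23), though without the 3 arrays that stood apart Slc7a3 was called lower in GFP-positive cells (adjusted p = 0.035).

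Slc7a5, the light chain that exchanges glutamine for leucine and other large neutral amino acids, read 10.66, 10.54 and 9.93 in Myc primary tumours. It read 10.78, 10.25 and 9.89 in Myc secondary, 10.57, 10.62 and 10.88 in Shh tumours, and 10.29, 10.25 and 10.02 in GFP-negative cells. The GFP-positive arrays, at 9.02, 9.35 and 9.10, were the lowest 3 of the 15. The differences from GFP-positive cells were 1.22 ± 0.23 in Myc primary (adjusted p = 0.0017), 1.15 ± 0.23 in Myc secondary (adjusted p = 0.0023) and 1.54 ± 0.23 in Shh tumours (adjusted p = 0.0015). GFP-positive cells were also lower than GFP-negative cells, with a difference of -1.03 ± 0.23 (adjusted p = 0.0046). Against GFP-negative cells, no tumour group was called: Shh tumours differed by 0.51 ± 0.23 (adjusted p = 0.12), and both Myc groups by less than 1 standard error. Myc secondary tumours differed from Shh tumours by -0.39 ± 0.23 (adjusted p = 0.26), which was called at -0.62 without the 3 arrays that stood apart (adjusted p = 0.012).

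Its partner Slc3a2, which takes its light chains to the cell surface, read 10.90, 11.05 and 10.66 in Myc primary, 10.89, 10.87 and 10.53 in Myc secondary and 11.12, 11.24 and 11.46 in Shh tumours. GFP-negative cells read 11.01, 11.40 and 10.92. GFP-positive cells read 10.07, 10.32 and 10.20 and were again the lowest 3 arrays. Slc3a2 was higher than in GFP-positive cells by 0.68 ± 0.16 in Myc primary (adjusted p = 0.0088), 0.57 ± 0.16 in Myc secondary (adjusted p = 0.022) and 1.08 ± 0.16 in Shh tumours (adjusted p = 0.0018). The Myc secondary call was lost without GFP-positive 1 (0.50), GFP-positive 3 (0.57), Myc secondary 1 (0.50) or Myc secondary 2 (0.52). It was also lost with cyclic loess (0.44) and with centred arrays (0.60), and the Myc primary call was lost with centred arrays (0.39). The Shh arrays lay above all 6 Myc tumour arrays. The difference was -0.51 ± 0.16 in Myc secondary against Shh tumours (adjusted p = 0.041) and -0.40 ± 0.16 in Myc primary against Shh tumours (adjusted p = 0.13, 95% interval -0.76 to -0.04). The Myc secondary call was lost without Shh 2 (-0.53), Shh 3 (-0.42), Myc secondary 2 (-0.56) or Myc secondary 3 (-0.39). Against GFP-negative cells, Slc3a2 in Myc secondary tumours differed by -0.35 ± 0.16 (adjusted p = 0.12), which was called at -0.51 without the 3 arrays that stood apart (adjusted p = 0.044) and turned to 0.19 with centred arrays. Cyclic loess called Slc3a2 lower than in GFP-negative cells in Myc primary (-0.57) and Myc secondary tumours (-0.71). Array weights called it lower in Myc secondary tumours (-0.57). The group order of Slc3a2 resembled that of Slc7a5, with Shh tumours highest and GFP-positive cells lowest in both. Between neighbours in that order, only the step down to GFP-positive cells was called, for Slc7a5 from GFP-negative cells and for Slc3a2 from Myc secondary tumours.

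Slc43a1, a facilitative transporter of leucine and other branched-chain amino acids, read 5.73, 6.57 and 6.26 in Myc primary, 5.50, 7.07 and 6.83 in Myc secondary and 5.88, 6.11 and 6.82 in Shh tumours. It read 6.04, 6.10 and 6.23 in GFP-positive and 5.03, 5.28 and 5.57 in GFP-negative cells. The tumour arrays overlapped with GFP-positive cells, from which each tumour group differed by less than 1 standard error. The group lowest in mean was GFP-negative cells, at 5.29 ± 0.27 (SD, n = 3). Slc43a1 was called higher than there in Myc secondary tumours, by 1.17 ± 0.37 (adjusted p = 0.024). This call was lost without GFP-negative 1 (1.04), GFP-negative 2 (1.17), Myc secondary 2 (0.87) or Myc secondary 3 (0.99). The same contrast gave 0.89 ± 0.37 in Myc primary (adjusted p = 0.083) and 0.98 ± 0.37 in Shh tumours (adjusted p = 0.066). Both were called without the 3 arrays that stood apart (1.0 and 1.12), with centred arrays (1.1 and 1.18) and with array weights (0.98 and 0.92). GFP-positive cells differed from GFP-negative cells by 0.83 ± 0.37 (adjusted p = 0.13), which was called at 0.97 without those 3 arrays (adjusted p = 0.029).

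Slc7a11, the cystine and glutamate exchanger that supplies cysteine for glutathione, read 4.40, 3.83 and 3.79 in Myc primary, 3.95, 4.02 and 3.90 in Myc secondary and 4.01, 3.69 and 3.73 in Shh tumours. It read 3.86, 3.83 and 3.85 in GFP-positive cells. None of these 12 arrays was above background. GFP-negative cells read 4.74, 4.50 and 5.29, and of these only GFP-negative 3 was above background. The test called Slc7a11 lower in Myc primary (-0.83 ± 0.20, adjusted p = 0.0062), Myc secondary (-0.89 ± 0.20, adjusted p = 0.0036), Shh tumours (-1.03 ± 0.20, adjusted p = 0.0021) and GFP-positive cells (-1.0 ± 0.20, adjusted p = 0.0026) than in GFP-negative cells. Since 1 array carries a signal above background, the size of the difference is only bounded. The bound is at least 1.05-fold, for the GFP-negative mean of 4.84 against the background. It rests on GFP-negative 3, which stood apart from its group. Its other probe set, 1443536_PM_at, lay between 3.11 and 3.83 on all arrays.

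Slc1a5, the sodium-dependent exchanger through which many cells take up glutamine, read 6.73, 6.5 and 5.85 in Myc primary, 7.84, 6.24 and 5.96 in Myc secondary and 7.63, 6.11 and 6.98 in Shh tumours. It read 4.85, 4.45 and 4.31 in GFP-positive and 3.81, 4.91 and 4.60 in GFP-negative cells. The tumour groups overlapped with each other, and no tumour array reached down to the sorted cells, whose group means of 4.54 ± 0.28 and 4.44 ± 0.57 (SD, n = 3) were not above background. In each sorted group 1 of 3 arrays was above it. With sorted arrays below background set to it, Slc1a5 was at least 2.96-fold higher in Myc primary (adjusted p = 0.016), at least 3.69-fold in Myc secondary (adjusted p = 0.0059) and at least 4.31-fold in Shh tumours (adjusted p = 0.011) than in GFP-positive cells. The Myc primary call was lost without Myc primary 1 (adjusted p = 0.059) or GFP-positive 3 (adjusted p = 0.059). Against GFP-negative cells it was at least 2.92-fold (adjusted p = 0.0087), 3.63-fold (adjusted p = 0.003) and 4.25-fold higher (adjusted p = 0.0024), and with this probe set these 3 calls were kept under every alternative run. The other probe set, 1440379_PM_at, gave 1.08 ± 0.33 in Myc primary (adjusted p = 0.028) and 1.68 ± 0.33 in Myc secondary tumours (adjusted p = 0.002) against GFP-positive cells. In Shh tumours it gave 0.85 ± 0.33 and missed the threshold (adjusted p = 0.14). Against GFP-negative cells this probe set was called in Myc primary (0.99 ± 0.33, adjusted p = 0.035) and Myc secondary tumours (1.59 ± 0.33, adjusted p = 0.0019) but not in Shh tumours (0.76 ± 0.33, adjusted p = 0.11). Its lowest Myc primary array, at 4.71, lay below GFP-negative 3, at 4.91.

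Slc38a1, a sodium-coupled glutamine transporter of neurons and other cells, read 10.68, 10.59 and 10.42 in Myc primary, 9.75, 10.69 and 10.77 in Myc secondary and 10.64, 10.83 and 9.88 in Shh tumours. It read 11.23, 11.01 and 11.10 in GFP-positive and 11.21, 10.99 and 11.07 in GFP-negative cells, above every tumour array. The fit did not call a difference: it was -0.55 ± 0.27 in Myc primary (adjusted p = 0.17), -0.71 ± 0.27 in Myc secondary (adjusted p = 0.077) and -0.66 ± 0.27 in Shh tumours (adjusted p = 0.18) against GFP-positive cells. Of 16 alternatives, 4, 3 and 2 called Slc38a1 lower in these groups, among them array weights in all 3 (-0.57, -0.45 and -0.54). Without Myc secondary 1 the second value was -0.38, and without Shh 3 the third was -0.38. The lower tumour values were not seen throughout its other probe set. 1415903_PM_at gave -0.57 ± 0.24 in Myc primary (adjusted p = 0.11), 0.08 ± 0.24 in Myc secondary and -0.01 ± 0.24 in Shh tumours.

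**Figure D3:**
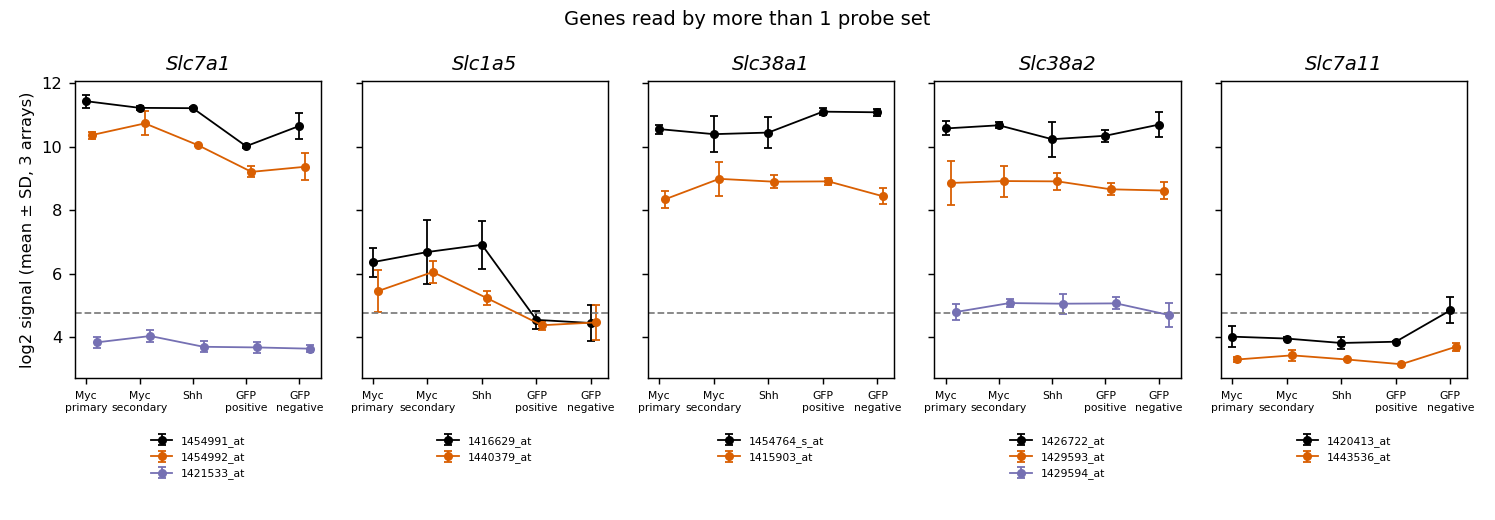
Mean log2 signal with SD of 3 arrays (vertical axis) in the 5 groups (horizontal axis) for the 5 members read by more than 1 probe set. Each line is 1 probe set and the dashed line is the background of 4.77. The bright probe sets of Slc7a1 are higher in tumours than in GFP-positive cells, while the 2 probe sets of Slc38a1 do not follow each other.

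Slc38a2, a glutamine and alanine transporter that Atf4 is known to induce, showed no call in any of the 10 comparisons. It read 10.69, 10.73 and 10.33 in Myc primary, 10.79, 10.60 and 10.67 in Myc secondary and 10.28, 10.76 and 9.67 in Shh tumours. It read 10.47, 10.44 and 10.13 in GFP-positive and 11.03, 10.80 and 10.26 in GFP-negative cells. All 5 groups overlapped with at least one other, and none of its 3 probe sets gave a call.

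The comparison of Myc primary with Shh tumours asks how the 2 tumour types differ. No member was called, beside 15.8% of all genes (8.46% higher and 7.33% lower), and by limma 1 of 9 had an unadjusted p below 0.05, Slc3a2. For Slc7a3, -0.50 ± 0.45 had a 95% interval from -1.49 to 0.48, and for Slc7a5, -0.32 ± 0.23 had one from -0.81 to 0.18. Slc1a5 differed by -0.54 ± 0.49 (adjusted p = 0.52), Slc7a1 by 0.22 ± 0.17 (adjusted p = 0.44) and Slc38a2 by 0.34 ± 0.26 (adjusted p = 0.43). Slc7a11, Slc38a1 and Slc43a1 differed by less than 1 standard error. With 1 array left out, Slc7a5 was -0.09 without Myc primary 3, Slc1a5 ran from -0.18 without Shh 1 to -0.94 without Shh 2, and Slc38a2 from 0.06 without Shh 3 to 0.60 without Shh 2. In Myc secondary against Shh tumours, 1 of 9 members was called lower, Slc3a2, beside 12.3% of all genes. In Myc secondary against Myc primary tumours, which compares tumours regrown from sphere cultures with Myc primary tumours, no member was called, beside 0.719% of all genes (0.257% higher and 0.462% lower), and by limma 0 of 9 had an unadjusted p below 0.05. The largest difference there was Slc7a3 at 0.77 ± 0.45 (adjusted p = 0.53, 95% interval -0.22 to 1.75), and it was 0.21 without Myc secondary 2 and 1.25 without Myc secondary 1. Slc7a1 differed by -0.21 ± 0.17 (adjusted p = 0.68), which turned to 0.12 both with the mean of its probe sets and with arrays centred on their median gene.

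Between the sorted populations, 4 of 9 members were lower in GFP-positive than in GFP-negative cells, beside 13.8% of all genes, and none was higher, beside 12.6%. These were Slc7a5, Slc3a2, Slc7a11 and Slc7a1, the last by -0.64 ± 0.17 (adjusted p = 0.013). With arrays centred on their median gene, which moved the median of all genes by 0.50, none was called lower and 1, Slc43a1, was called higher. The Slc7a1 call was also lost without GFP-negative 2 (-0.48) or GFP-positive 1 (-0.61), and on the mean of its probe sets (-0.26). Its second probe set gave -0.16 ± 0.21 (adjusted p = 0.66).

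Against GFP-negative cells, 3 members were higher and 1 lower in Myc primary tumours, beside 19.1% of all genes higher and 14.7% lower. In Myc secondary tumours 4 were higher and 1 lower, beside 19.4% and 18% of all genes. In Shh tumours 3 were higher and 1 lower, beside 16% and 13.1% of all genes. Slc7a11 was the member called lower in all 3, and without the 3 arrays that stood apart its call in Myc primary tumours was lost (-0.50).

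GFP-negative cells are a mixture, and the marker lists show how much it differed from the GFP-positive cells. The mean of 12 microglia and macrophage markers ran from 9.24 to 10.63 in GFP-negative arrays and from 3.83 to 4.21 in GFP-positive arrays, where the group means of all 12 markers were not above background. The tumours lay between, from 5.55 to 5.98 in Myc primary, 5.63 to 6.98 in Myc secondary and 5.41 to 5.91 in Shh tumours. Compared with GFP-positive cells, 6 of 12 of these markers were higher in Myc primary, 9 of 12 in Myc secondary and 6 of 12 in Shh tumours. The mean of 14 endothelial markers ran from 5.68 to 6.85 in Myc primary, 6.05 to 6.17 in Myc secondary, 5.28 to 5.72 in Shh tumours, 4.95 to 5.10 in GFP-positive and 6.91 to 7.90 in GFP-negative arrays. Of these 14, 4 had a group mean not above background in Myc primary, 5 in Myc secondary, 6 in Shh tumours and 8 in GFP-positive cells. Cdh5 and Pecam1, which define endothelium and were chosen after their values were seen, were not above background on any Shh or GFP-positive array. Other markers of the list, chosen in the same way, were above it. In Shh tumours Cldn5 read 5.81, 6.74 and 7.19 and Ly6c1 6.43, 6.18 and 6.83. Ramp2 read 11.17, 11.44 and 11.68 there and 13.54, 13.28 and 13.45 in GFP-positive cells. Of the 14, 5 were higher in Myc primary, 6 in Myc secondary and 1 in Shh tumours than in GFP-positive cells, and 1 was lower in each. Endothelial cells at the blood-brain barrier are known for high Slc7a5 and Slc7a1. The part of these cell types in the transporter differences was not tested, and in bulk samples fewer cells of a type cannot be told apart from less RNA per cell. The mean of 10 granule neuron progenitor markers ran from 9.63 to 10.02 in Shh tumours and from 9.84 to 10.15 in GFP-positive cells, but from 6.40 to 7.21 over the Myc tumours. Myc primary 3 had an oligodendrocyte marker mean of 9.01, against a lowest value of 4.65 in its group.

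**Figure D4:**
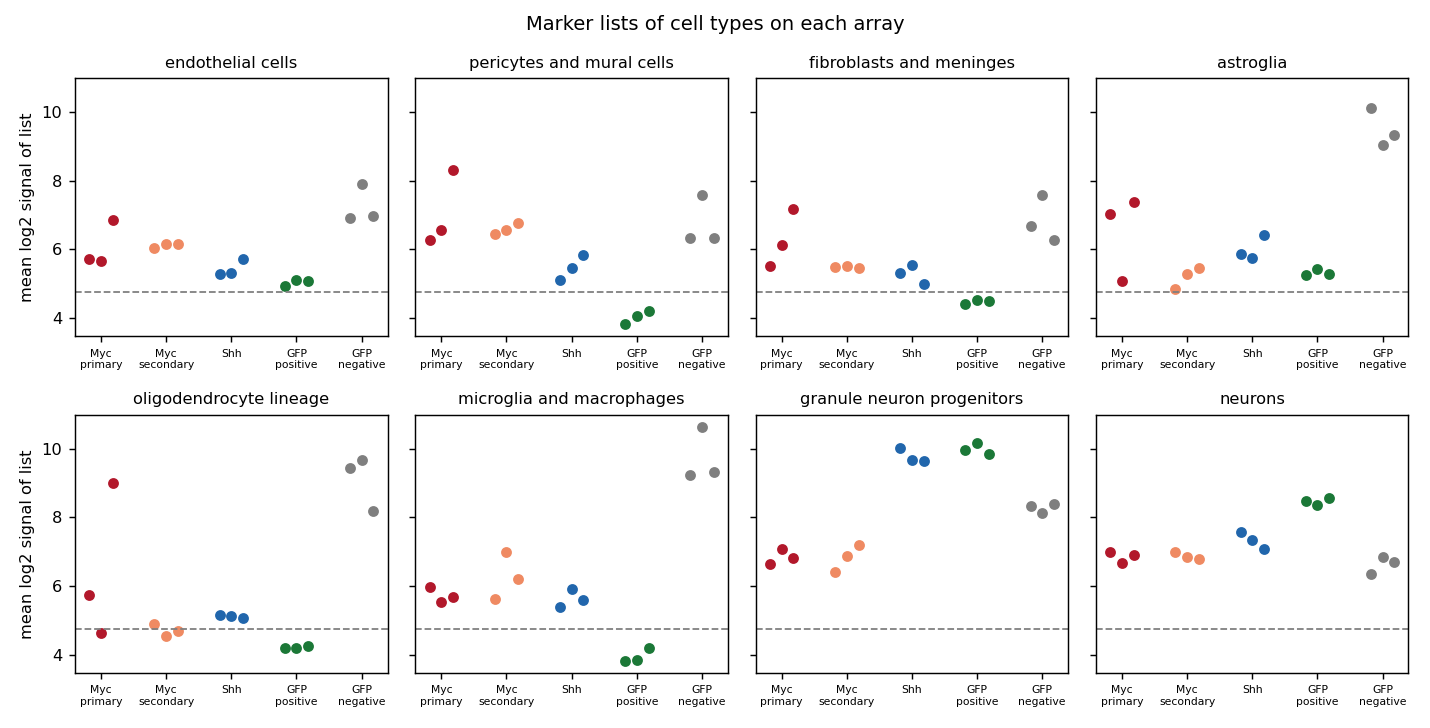
Mean log2 signal of 8 lists of cell type markers (vertical axis) on each of the 15 arrays, by group (horizontal axis), with the background of 4.77 as a dashed line. Each point is 1 array. GFP-negative cells are highest for microglia, astroglia and endothelial cells, and Shh tumours and GFP-positive cells are highest for granule neuron progenitors.

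Most other plasma membrane amino acid transporters were not called in tumours against GFP-positive cells. Many were dim: 23 of the 40 had a group mean not above background in Myc primary, 24 in Myc secondary and 23 in Shh tumours. In GFP-positive cells it was 23. The counts and medians of this list therefore do not show that these genes were expressed and unchanged. Of 40 measured, 8 were higher and 3 lower in Myc primary, 5 higher and 2 lower in Myc secondary and 3 higher and 3 lower in Shh tumours, with medians of 0.07, 0.07 and -0.05. The share higher was 20% in Myc primary, 12.5% in Myc secondary and 7.5% in Shh tumours, beside 14.5%, 13.5% and 4.63% of all genes. Slc7a2, a further carrier of arginine and lysine, read 4.51, 4.80 and 4.48 in GFP-positive cells, of which 1 array was above background. It was at least 7.73-fold higher in Myc primary, 1.97-fold in Myc secondary and 2.71-fold in Shh tumours (adjusted p = 6e-05, 0.034 and 0.017). GFP-negative cells read 8.97, 7.86 and 7.72 for Slc7a2, against a highest tumour array of 8.10. Slc7a2 was lower in Myc secondary than in Myc primary tumours, by -1.97 ± 0.37 (adjusted p = 0.035), a contrast in which neither Slc7a1 nor Slc7a3 was called. In Myc primary against Shh tumours, 4 of the 40 were higher and 2 lower (10% and 5%, beside 8.46% and 7.33% of all genes). Slc38a4, a relative of Slc38a1 and Slc38a2, read 7.35, 6.63 and 7.86 in Myc primary tumours and 3.40, 3.58 and 3.62, not above background, in Shh tumours (adjusted p = 0.00021). In Myc secondary tumours Slc38a4 read 3.67, 4.03 and 6.01, of which 1 array was above background, and it was lower there than in Myc primary tumours (adjusted p = 0.027). Slc6a6, the taurine transporter, was higher in Myc primary than in Shh tumours by 1.91 ± 0.29 (adjusted p = 0.00077). Slc1a2 and Slc1a3, glutamate transporters that are also on the astroglia list, were lower there. They do not stand for that list, of which 1 of 10 genes was higher and 3 lower in this contrast, with a median of 0.78. Slc1a3 differed by -1.07 ± 0.26 (adjusted p = 0.013). Slc1a2 read 5.63, 5.21 and 5.85 in Shh tumours and was not above background in Myc primary tumours (adjusted p = 0.0018). Between the sorted cells, 16 of 40 were lower in GFP-positive cells and 3 higher, beside 13.8% and 12.6% of all genes. Among the 16 was Slc7a10, an alanine and serine transporter of astrocytes, which read 8.95, 8.03 and 7.88 in GFP-negative cells and was not above background on any other array (adjusted p = 9.5e-08).

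Many genes on the amino acid response and Atf4 target list were called higher in tumours than in GFP-positive cells. Of 35 measured genes, 25 were higher and 0 lower in Myc primary, 22 higher and 1 lower in Myc secondary and 15 higher and 0 lower in Shh tumours. The share higher was 71.4%, 62.9% and 42.9%, beside 14.5%, 13.5% and 4.63% of all genes. The list medians were 1.06, 1.17 and 0.79, beside 0.06, 0.05 and -0.01 for all genes. The counts of this list and of the other lists were not repeated with the term for the title run. The Myc primary and Shh arrays are in the earlier run and the GFP-positive arrays in the later one. Asns, which makes asparagine, and Eif4ebp1, an inhibitor of translation initiation, were chosen after their values were seen. Asns was higher by 3.06 ± 0.22 in Myc primary, 3.25 ± 0.22 in Myc secondary and 2.35 ± 0.22 in Shh tumours (adjusted p = 1.4e-06, 6.5e-07 and 4.4e-05). Eif4ebp1 was higher by 4.54 ± 0.31, 4.43 ± 0.31 and 3.27 ± 0.31 in the same order (adjusted p = 1.2e-06, 9.4e-07 and 6.1e-05). Ddit3, a further gene of the list chosen in the same way, went the other way in Myc secondary tumours. It read 8.01, 7.82 and 7.70 there and 9.35, 9.26 and 9.41 in GFP-positive cells. The Atf4 gene itself, also chosen after its values were seen, was not called, at -0.35 ± 0.26 in Myc primary (adjusted p = 0.38), -0.31 ± 0.26 in Myc secondary (adjusted p = 0.47) and -0.51 ± 0.26 in Shh tumours (adjusted p = 0.29). In Myc primary against Shh tumours 9 of 35 were higher and 1 lower (25.7% and 2.86%, beside 8.46% and 7.33% of all genes). Among these were both enzymes of transsulphuration, which makes cysteine from methionine: Cth was higher by 3.53 ± 0.45 (adjusted p = 0.00026) and Cbs by 2.59 ± 0.41 (adjusted p = 0.00093). Cth read 8.99, 9.47 and 8.63 in Myc primary, 7.96, 9.90 and 9.41 in Myc secondary and 5.76, 5.39 and 5.35 in Shh tumours, so that the Myc and Shh groups did not overlap. Slc7a11, which brings cysteine in as cystine, was not above background in any of these 9 tumours. In Myc secondary against Myc primary tumours 0 of 35 were called in either direction.

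**Figure D5:**
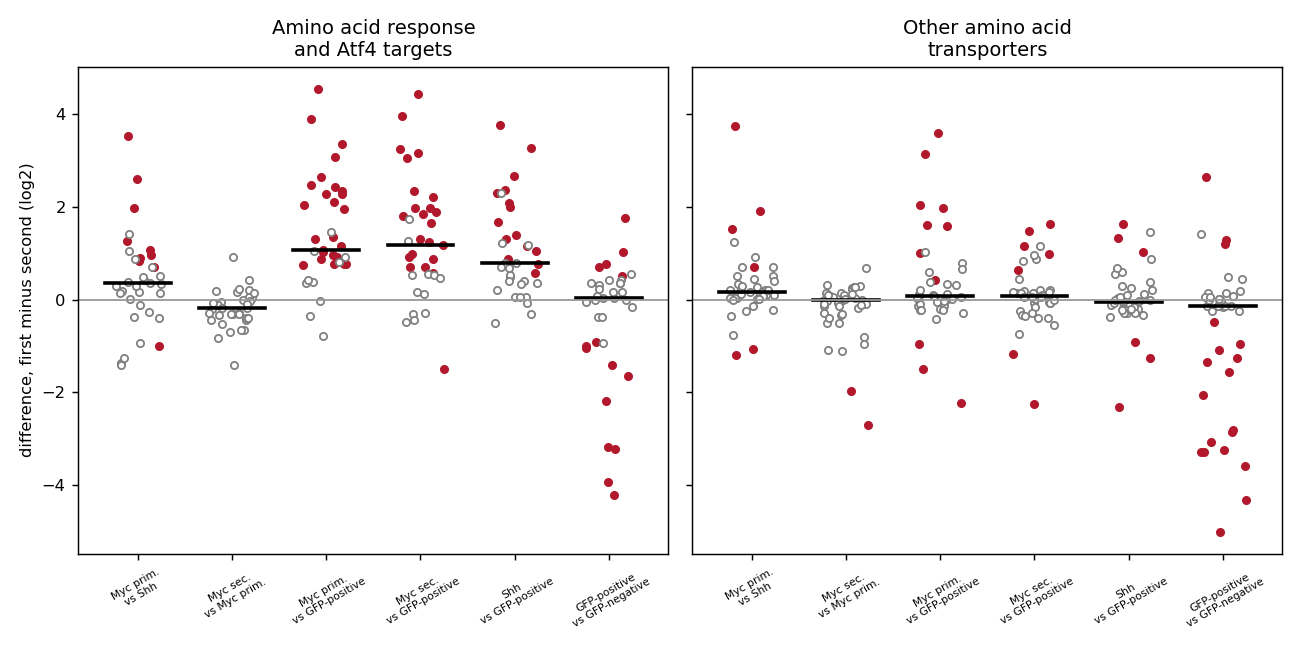
Difference in log2 signal, first group minus second (vertical axis), of each gene of the amino acid response and Atf4 target list (35 genes, left) and of the other amino acid transporters (40 genes, right) in 6 comparisons (horizontal axis). Filled points have an adjusted p below 0.05 and black lines are list medians. The left list has medians of 1.06, 1.17 and 0.79 against GFP-positive cells and the right list 0.07, 0.07 and -0.05.

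The remaining lists were smaller. Of 24 genes of mTORC1 and amino acid sensing, 5 were higher and 1 lower in Myc primary, 6 higher and 1 lower in Myc secondary and 1 higher and 0 lower in Shh tumours than in GFP-positive cells. The share higher was 20.8%, 25% and 4.17%, beside 14.5%, 13.5% and 4.63% of all genes. Rragd, a Rag GTPase that brings mTORC1 to the lysosome, was higher by 1.64 ± 0.14, 2.38 ± 0.14 and 1.29 ± 0.14 in these groups (adjusted p = 4.6e-06, 2.7e-07 and 0.00014). Rragd was also the 1 gene of this list higher in Myc secondary than in Myc primary tumours, by 0.74 ± 0.14 (adjusted p = 0.035). Of 14 genes of glutamine and glutathione metabolism, 7 were higher and 1 lower in Myc primary, 8 higher and 1 lower in Myc secondary and 1 higher and 0 lower in Shh tumours (50%, 57.1% and 7.14% higher). Of 12 genes of arginine metabolism, 4 were higher and 1 lower in each Myc group and 1 higher and 1 lower in Shh tumours (33.3% higher in each Myc group and 8.33% in Shh tumours). Asl, which makes arginine from argininosuccinate, was higher in Myc primary than in Shh tumours by 2.45 ± 0.32 (adjusted p = 0.00028), a contrast in which the arginine transporters Slc7a1 and Slc7a3 were not called.

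Among 6521 genes, those whose signals correlated most with Slc7a3 over the 15 arrays were Atf5 (Pearson r = 0.92), Metap1d (0.917), Shfl (0.916) and Psat1 (0.912). Atf5 is a transcription factor of the same response as Atf4, and Psat1 makes serine. Atf5 averaged 8.31 in Myc primary, 7.88 in Myc secondary and 8.71 in Shh tumours, against 6.04 in GFP-positive and 6.09 in GFP-negative cells. The genes closest to Slc1a5 were Aff1 (0.918), Usp36 (0.904), Airn (0.893) and Atp8b2 (0.888). Those closest to Slc7a5 were Luc7l (0.879), Impact (0.859), Gpt2 (0.857) and Calb2 (0.837). Gpt2, which makes glutamate and pyruvate from alanine, averaged 6.5 in GFP-positive cells and between 8.57 and 8.92 in the other groups. Those closest to Slc3a2 were Lgals9 (0.918), Psmb8 (0.905), Oas1g (0.905) and Bag3 (0.904). The first 3 of these are genes that interferon is known to induce. Lgals9 averaged 5.98 in Shh tumours and 5.94 in GFP-negative cells, 4.93 and 4.73 in Myc primary and Myc secondary tumours, and 3.86, not above background, in GFP-positive cells. The 15 arrays share the same 5 groups in each of these correlations, so they describe group patterns and carry no test.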

How the data were processed

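The authors deposited log2 signals, made with Partek 6.5 by RMA (robust multi-array average), per the submitters' processing notes. RMA's settings are not given in the sources used here. It held 45141 probe sets on 15 HT_MG-430_PM arrays, 1 per sample, and was used as deposited. Left out were 104 control probe sets, 551 listed with several genes and 15588 further ones listed with none. Of 28898 listed with 1 gene, 28689 took their symbol from the GRCm38.p6 annotation. Each of 17097 genes was read by its probe set of highest mean over the 15 arrays, a choice among several for 7180 genes. Beyond the rank of members in mean signal, levels of different genes were not compared, since probe sets differ in response.

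Groups were compared with limma 3.58.1 (lmFit and eBayes, R 4.3.3) in 1 fit over all 5 groups, with 10 residual and 2.54 prior degrees of freedom, two-sided, and Benjamini-Hochberg adjustment over all genes. The labels give no replicate numbers, so arrays were numbered in accession order. P-values measure only the spread between these samples, which may be technical. The number of arrays, 3 a group, limits the precision.

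The members, the gene lists, the comparisons and the alternatives were chosen with earlier results of these data known. All members were named. Genes that could be named besides were, from each list, any of the up to 4 with the smallest adjusted p in Myc primary against Shh, in Myc secondary against Myc primary and in GFP-positive against GFP-negative samples, and the 4 genes most correlated with Slc3a2 and with the 3 members of widest range (no member or predicted gene, range between group means of at least 1, at least 1 group mean above background). Myc, Mycn and Atoh1 were named as well. The lists are those the text describes, with markers of 8 cell types. Alternatives were averaging the probe sets of a gene, testing each probe set, dim genes left out, cyclic loess, arrays centred on the median gene, only the 6 arrays compared, a variance trend with robust variance (statmod 1.5.0), array weights, each array left out in turn, the 3 arrays that stood apart left out, and a term for the 2 title number runs. The fit was tested on simulated data. Figures used Python 3.11.15, matplotlib 3.10.9, pandas 2.3.3 and numpy 2.4.6.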

Additional observations from a re-analysis of the deposited data

How the results depend on the processing

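Of 33 called member differences, 12 kept their call under all alternatives run: Slc7a1 against GFP-positive cells in all 3 tumour groups, Slc7a3 and Slc1a5 against GFP-negative cells in all 3, and Slc7a3, Slc7a5 and Slc1a5 in Myc secondary tumours against GFP-positive cells. Over 528 alternative values of these differences, 470 kept the call, 58 lost it and 0 changed sign. In the alternative that tested each probe set, a member was still read by its brightest one, so a disagreeing probe set could not lose a call there. The other probe set of Slc1a5 was not called in Shh tumours against GFP-negative cells, at 0.76 ± 0.33. Over 416 alternative values of 26 uncalled differences, 34 were called and 7 changed sign; Slc38a1, Slc43a1, Slc3a2, Slc7a5, Slc7a3 and Slc38a2 gained calls. The count of called members moved as follows. Arrays centred on the median gene gave 1 in GFP-positive against GFP-negative cells. Only the 6 arrays compared gave 0 in Myc secondary against Shh, 2 in Myc primary against GFP-negative and 3 in Myc secondary against GFP-negative samples. For Myc secondary against Shh tumours, array weights gave 3, leaving out the 3 arrays that stood apart gave 2 and the term for the run gave 0. That term gave 1 in Myc primary and 1 in Shh tumours against GFP-positive cells, with Slc7a3 at 2.02 and 2.52, Slc7a5 at 0.97 and 1.29, Slc3a2 at 0.39 and 0.79 and Slc1a5 at 2.06 and 2.61, and 3 in Myc secondary tumours against GFP-negative cells. With each array left out in turn, the count was 0 to 0 in Myc primary against Shh and in Myc secondary against Myc primary tumours, and 0 to 1 in Myc secondary against Shh tumours. Against GFP-positive cells it was 4 to 5 in Myc primary, 4 to 6 in Myc secondary and 5 to 5 in Shh tumours. Against GFP-negative cells it was 4 to 4, 3 to 5 and 3 to 4 in that order, and 3 to 4 in GFP-positive cells. Differences that changed sign were not called: Slc7a1 in Myc secondary against Myc primary tumours was 0.12 with the mean of probe sets and 0.12 with centred arrays. Slc38a2 in GFP-positive against GFP-negative cells was 0.02 with the mean of probe sets, 0.15 with centred arrays and 0.09 with the term for the run, and in Shh tumours against GFP-negative cells 0.06 with the mean of probe sets. Slc3a2 in Myc secondary tumours against GFP-negative cells was 0.19 with centred arrays. The cause was not tested. Centring moved the median of all genes by up to 0.54 and cyclic loess by up to 0.09 in size. No member fell to the filter on dim genes, which left out 2109 of 17097. No paired analysis was possible because the labels give no replicate numbers. Signals near 4.77 (Slc7a11, and Slc7a3 and Slc1a5 in sorted cells) limit what folds can be read.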
